A study of Drosophila melanogaster with 24 samples.

Results

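The 3 globin genes of Drosophila melanogaster, glob1, glob2 and glob3, were followed in whole mutants and heterozygous controls of sima, which encodes the fly's hypoxia-inducible factor 1-alpha. They were taken by name, 3 of 10889 gene rows in the embryo table and of 17895 in the larval table, and were chosen on their mutant and control values, because glob1 was higher in mutants at every stage. Their differences between mutants and controls are therefore described here without a test. Only measures that did not enter this choice, such as changes between stages within a genotype, were tested.

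RNA was sequenced from 24 samples, 18 of embryos and 6 of larvae. Mutants carried sima allele 1 over allele 20 (Sima 1/20). The control animals were heterozygous for allele 1 (Sima 1/+), so both genotypes held 1 copy of allele 1, and no animal without any sima mutation was compared. Embryos aged 8-12 h, 12-16 h and 16-20 h and whole larvae aged 60 h gave 8 groups of 3 samples each. The labels do not say whether the samples of a group came from separate cultures, so p-values measure only the spread between these samples, which may be technical. They also do not give the genotype of the mothers.

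Globins are small proteins that hold a heme group, which binds oxygen. Insects bring air to their cells through tracheae, and most of them have no oxygen carrier in the blood, so fly globins are thought to act inside cells. glob1 encodes the main fly globin and is known from the tracheae and the fat body. glob2 and glob3 are known mainly from the male germ line. Sima accumulates when oxygen is low and switches on target genes with its partner Tango.

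All 3 genes lie on chromosome arm 3R of the fly genome (BDGP6.54, Ensembl release 115), the arm that also carries sima itself (3R:30058311-30121798). glob1 (FBgn0027657) spans 3R:15896926-15904643 on the minus strand and has 6 annotated transcripts with 3 different start sites. glob2 (FBgn0250846) spans 3R:6605997-6608914 on the minus strand, with 3 transcripts from 1 start site. glob3 (FBgn0037385) spans 3R:5830062-5831785 on the plus strand with 1 transcript, whose 3′ end overlaps the next gene on the same strand, CG1208 (3R:5831639-5838782).

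The deposited unit is FPKM, fragments per kilobase of gene, scaled to the depth of the library. The kilobases proved to be those of the whole gene, introns included. With gene spans, 100% of the values worth up to 20 fragments came out whole (within 0.05) in every library, against 30.7% to 39.2% with exon lengths. The number of fragments behind each value was thus recovered. Intron-rich genes are understated on this scale: the span of glob1 is 4.28 times its exon length, that of glob3 1.54 times and that of glob2 1.16 times. Levels are compared between genes only after rescaling to exon length, and the ratio of 1 gene's FPKM between samples does not depend on the length. Differences on the log2(FPKM + 1) scale used below do, since the added 1 shrinks them more in genes of low FPKM. The FPKM denominators implied by the fragments were 6.60 to 13.4 M fragments in embryos and 10.3 to 15.2 M in larvae (M, mega). The targeted gene sima was lower in the 3 mutant than in the 3 control samples at all 4 stages, by 0.21 to 0.26 on the log2 scale. This difference passed the threshold used below at 12-16 h and 16-20 h (limma adjusted p 0.0238 and 0.0222), but not at 8-12 h or in larvae (0.0702 and 0.170).

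Expression of glob1 in 8-12 h controls was 24.5, 26.0 and 25.3 FPKM, and 33.8, 31.6 and 32.6 FPKM in 12-16 h controls. In 16-20 h controls it was 24.2, 27.3 and 28.8 FPKM. The 3 samples of each group lay close together, and the 12-16 h controls stood above all samples of the other embryo control groups. Mutant embryos at 8-12 h held 40.6, 39.6 and 35.6 FPKM of glob1. At 12-16 h they held 43.0, 39.5 and 38.9 FPKM, and at 16-20 h 31.3, 35.9 and 32.5 FPKM. Every mutant sample was above every control sample of its own stage. Control larvae held 47.1, 45.7 and 42.8 FPKM and mutant larvae 96.5, 73.5 and 83.7 FPKM, in a table that was normalized apart from that of the embryos. The mutant larvae were the highest samples and also the most spread. Each library gave from 1594 to 9598 glob1 fragments.

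**Figure D1:**
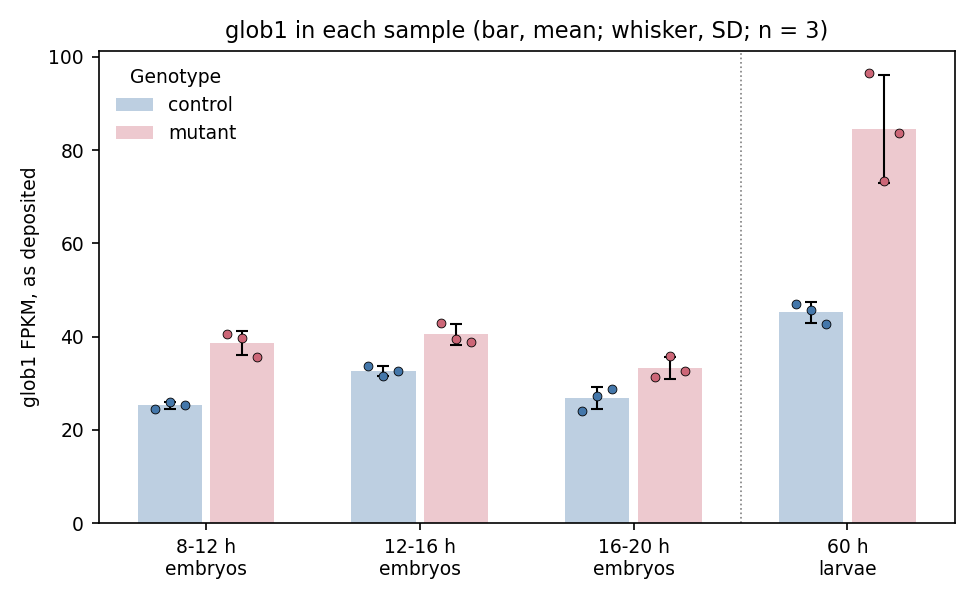
glob1 in FPKM as deposited (vertical axis) in each of the 24 samples, by stage and genotype. Points are samples, bars means and whiskers SDs of 3 samples. The points of mutants lie above those of controls at each stage, with the widest gap in larvae, where the lowest mutant (73.5 FPKM) lies above the highest control (47.1 FPKM).

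The mean of glob1 over 8-12 h controls was 25.2 ± 0.748 FPKM, against 38.6 ± 2.65 FPKM over 8-12 h mutants (± SD of 3 samples, here and below). The 12-16 h means were 32.7 ± 1.10 FPKM without and 40.5 ± 2.23 FPKM with the mutant genotype, and the 16-20 h means 26.8 ± 2.38 FPKM and 33.3 ± 2.41 FPKM. Larval means were 45.2 ± 2.22 FPKM for controls and 84.6 ± 11.5 FPKM for mutants. The ratio of mutant to control mean was 1.53 at 8-12 h, 1.24 at 12-16 h, 1.24 at 16-20 h and 1.87 in larvae. The distance from the highest control to the lowest mutant sample was 9.66, 5.10, 2.49 and 26.4 FPKM at the 4 stages, so the groups came closest at 16-20 h. Libraries were made from whole animals, in which a change in the number of glob1-expressing cells and a change in RNA per cell cannot be told apart.

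Ordered by mean, the embryo groups ran from 8-12 h controls through 16-20 h controls, 12-16 h controls, 16-20 h mutants and 8-12 h mutants to 12-16 h mutants. The samples of 12-16 h controls and 16-20 h mutants overlapped, as did those of 8-12 h and 12-16 h mutants and those of 8-12 h and 16-20 h controls. The 16-20 h mutants were the lowest mutant group and the 12-16 h controls the highest control group.

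On the log2(FPKM + 1) scale, which was used for all fits, glob1 was higher in mutants by 0.59, 0.30 and 0.30 at the 3 embryo stages (SE 0.0786 each). In larvae it was higher by 0.88 (SE 0.119). Over all genes tested the median differences were 0.0147, 0.0169, -0.0254 and -0.0291. The size of the glob1 difference ranked 265th, 1671st and 1069th of 6784 genes in embryos and 267th of 8619 in larvae, counted from the largest rise. At 12-16 h and 16-20 h many genes thus rose by more than glob1.

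As background to these differences, mutant values lay all above control values in 15.4% of genes tested at 8-12 h, 21.1% at 12-16 h, 19.4% at 16-20 h and 14.7% in larvae. This held at all 4 stages in 42 of the 5256 genes tested in both tables (0.799%). Higher at all 4 stages with an adjusted p under 0.05 (limma with Benjamini-Hochberg adjustment) were 6 genes (0.114%), a count that includes glob1, which was chosen for this pattern, so that nothing is read from its place there. The others were the cytochrome P450 genes Cyp12d1-d and Cyp12d1-p, cathD, which encodes the lysosomal protease cathepsin D, Culd, and tej, a gene of the germ-line piRNA pathway. Among them glob1 had the smallest difference at each of the 3 embryo stages. Cyp12d1-d and Cyp12d1-p are near-identical copies, so the division of reads between them is uncertain.

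**Figure D2:**
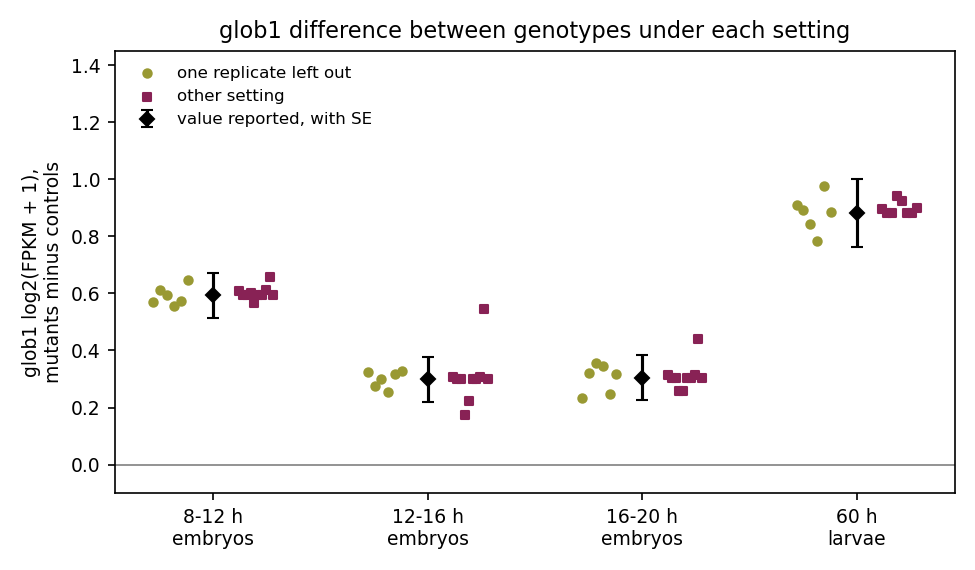
Difference of glob1 between genotypes (vertical axis, log2(FPKM + 1), mutants minus controls) at each stage. Diamonds are the values reported with their SE, circles the values with 1 replicate left out and squares those under the other settings. No value lies at or below 0, and the widest scatter is at 12-16 h, from 0.18 to 0.55.

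Within the controls glob1 followed a rise and a fall over embryonic life, while the mutants began high. From 8-12 h to 12-16 h glob1 rose in controls by 0.36 on the log2 scale (SE 0.0786, limma adjusted p 0.00085), with all 3 later samples above all 3 earlier ones. In mutants the change over the same interval was 0.07 (SE 0.0786, limma adjusted p 0.481), which did not pass the threshold. Stage changes passed the threshold in most genes, 68.1% in controls and 64.9% in mutants for this interval. The rise in controls missed the threshold with median centring (0.19, limma adjusted p 0.0502). It also missed it with the mean log2 level of maternal genes as a covariate (0.21, limma adjusted p 0.175).

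From 12-16 h to 16-20 h glob1 fell in both genotypes, by 0.28 in controls (limma adjusted p 0.00502) and by 0.28 in mutants (limma adjusted p 0.00638). In this interval 67.8% of all genes tested passed the threshold in controls and 63.9% in mutants. All 3 later samples lay below all 3 earlier ones in each genotype, and the call held under all alternatives run. Between 8-12 h and 16-20 h the change in controls was 0.08 (limma adjusted p 0.363), with overlapping samples. In mutants glob1 fell by 0.21 (limma adjusted p 0.0219), and 1 of the 3 later samples reached into the earlier range. For this interval 83.6% of genes passed in controls and 82.1% in mutants. The fall in mutants rests on the model of all 6 embryo groups: it missed the threshold when only the 2 groups compared were fitted (limma adjusted p 0.0745). It was also lost in 4 of 6 fits that left out a replicate, with changes from -0.27 to -0.17 and limma adjusted p up to 0.0888.

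Because FPKM depend on what else is in a library, these steps were also read against all genes tested. These come from an embryo table that is cut short, so they are only a part of each library. Median centring moved the median of all genes by -0.17 and -0.22 from 8-12 h to 12-16 h, and by -0.36 and -0.38 from 8-12 h to 16-20 h, in controls and mutants in that order. Relative to the median of all genes, glob1 changed by 0.34 in controls and by 0.04 in mutants from 8-12 h to 12-16 h. Relative to that median it changed by -0.33 and -0.30 from 12-16 h to 16-20 h, and by 0.02 and -0.24 over the whole period. Median centring leaves these relative values as they are, but quantile normalization gave 0.62 and 0.26 for the first step, -0.36 and -0.35 for the second, and 0.27 and -0.08 over the whole period. The step from 8-12 h to 12-16 h was smaller in mutants by 0.29 as deposited. This difference comes from the contrast on which glob1 was chosen and was not tested.

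Rescaled to exon length, the glob1 means of control embryos were 108, 140 and 114 FPKM at 8-12 h, 12-16 h and 16-20 h. Those of mutant embryos were 165, 173 and 142 FPKM, and in larvae 193 FPKM in controls and 362 FPKM in mutants. On this scale glob1 lay at the 92.7th to 97.4th percentile of the genes tested in every group. It was an abundant transcript in all 8 groups.

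glob2 was close to absent, with 0 fragments in each of the 3 control and 3 mutant libraries at 8-12 h. This allows a level of up to 0.0276 FPKM in controls and 0.0266 FPKM in mutants, taking 3 fragments over the group as the limit. At 12-16 h the controls held 0, 0 and 1 fragments and the mutants 4, 5 and 1. At 16-20 h the controls held 9, 4 and 11 fragments and the mutants 4, 5 and 4, so each of these 6 libraries held more glob2 than any 8-12 h library. Larval controls held 2, 0 and 0 fragments and larval mutants 4, 2 and 2. The sums over 3 libraries were 24 at 16-20 h in controls (exact 95% Poisson interval 15.4 to 35.7) and 13 in mutants (6.92 to 22.2), and these intervals cover counting error only.

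glob2 rose from 8-12 h to 16-20 h by 0.253 FPKM over both genotypes (two-sided exact permutation within genotypes, p 0.005, the smallest that its 400 arrangements can give). Adjusted over the tests of glob2 and glob3 this p was 0.01. The rise was 0.301 FPKM for controls and 0.205 FPKM for mutants, and it was seen in 6 of 6 samples. Within 1 genotype the exact p was 0.1, the smallest that 3 samples against 3 allow. This test was chosen after the values were seen, since glob2 and glob3 fell under the minimum of 1 FPKM in 3 samples that genes had to reach for the limma fit.

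glob3 gave no more than 3 fragments in any library. It held 1, 1 and 3 fragments in 8-12 h controls, 0, 0 and 2 in 12-16 h controls, and 1, 2 and 0 in 16-20 h controls. Mutant embryos held 0, 0 and 1 at 8-12 h, 0, 1 and 0 at 12-16 h and 0 in each library at 16-20 h. Of the 6 larval libraries only 1, a mutant, held a fragment. Between 8-12 h and 16-20 h glob3 changed by -0.0148 FPKM (two-sided exact permutation within genotypes, p 0.6). No difference between these stages was detectable for glob3 at this depth. Its sums over 3 libraries were 5, 2 and 3 fragments in control and 1, 1 and 0 fragments in mutant embryos at the successive stages, and this difference between genotypes was not tested. The overlapping CG1208 held 36.0 FPKM in control larvae, whose 3 libraries had glob3 at 0. CG1208 rose in mutants at 12-16 h by 0.56 (limma adjusted p 0.00653), from 0.758 to 1.60 FPKM, and passed the threshold at no other stage.

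**Figure D3:**
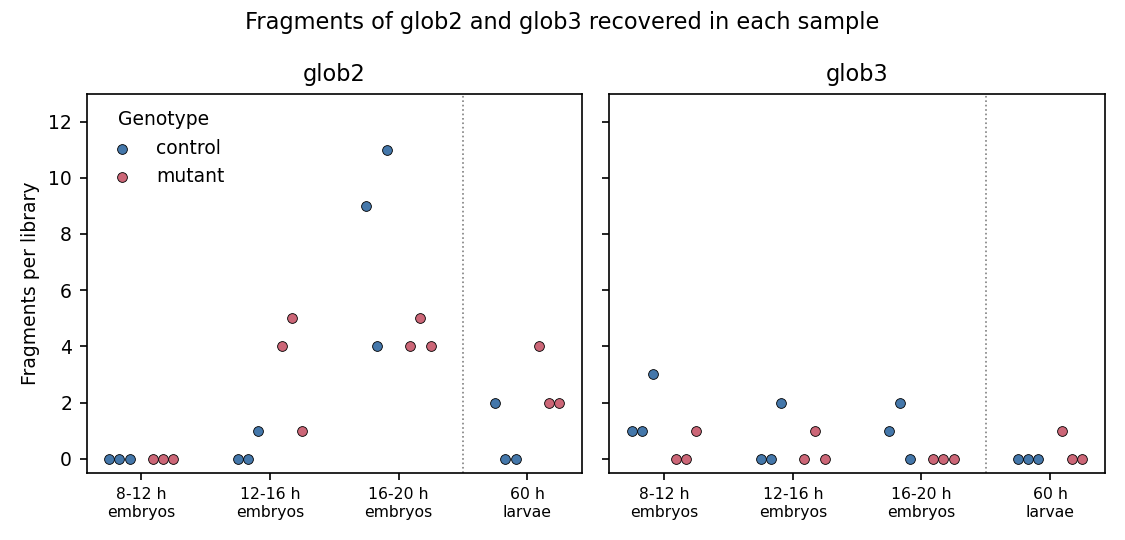
Fragments of glob2 (left) and glob3 (right) recovered in each library (vertical axis, fragments per library), by stage and genotype. Each point is 1 sample. glob2 is at 0 in all 6 libraries at 8-12 h and between 4 and 11 in the 6 libraries at 16-20 h, while glob3 stays at 3 or below.

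Per exon length, glob1 was far above the other globins in every group. In 16-20 h controls, where glob2 was highest, glob1 was 328-fold higher than glob2 (exact 95% interval from the counts of glob2, 221 to 513). In 16-20 h mutants it was 598-fold higher (350 to 1124). At 8-12 h, with glob2 at 0, glob1 was at least 3387-fold higher in controls and at least 5379-fold higher in mutants, against a limit of 3 fragments over the group. Against glob3 it was 872-fold higher in 8-12 h controls (374 to 2685) and at least 2548-fold higher in control larvae. glob1 therefore made up nearly all globin transcripts in embryos and larvae of both genotypes.

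The cells that these genes are known from were followed by marker lists, summed per sample in FPKM. Of 10 tracheal genes, led at 16-20 h and in larvae by verm and serp, which encode chitin deacetylases of the tracheal matrix, 9 were in the embryo table and none was at 0. Their sum was 260 to 278 FPKM for 8-12 h controls and 208 to 262 in mutants. It was 401 to 492 and 521 to 554 at 12-16 h, and 387 to 443 and 507 to 556 at 16-20 h, in controls and mutants in that order. In larvae it was 158 to 287 in controls and 120 to 146 in mutants. The tracheal sum was thus higher in mutants at 12-16 h and 16-20 h, overlapped at 8-12 h and was lower in mutant larvae. The sum is set by its most abundant genes, at 12-16 h verm and Gasp, and the median difference of the tested genes was -0.12, -0.07, 0.26 and -0.26 at the 4 stages. Of the 9 genes tested in embryos, 0 passed an adjusted p of 0.05 at 8-12 h (limma; 3 at an unadjusted p under 0.05, 1 with voom), 1 was lower at 12-16 h and 3 were higher at 16-20 h. In larvae 0 of 7 passed (limma; 3 unadjusted, 0 with voom). Over all genes tested the shares called in either direction were 5.63%, 31.7%, 15.8% and 9.4% at the 4 stages.

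The fat body list, led in control larvae by the larval storage proteins Lsp1beta and Lsp1gamma, summed to 3695 to 5482 FPKM in control larvae and 836 to 2922 FPKM in mutant larvae. The groups did not overlap, with mutants lower, but this sum is carried by the very abundant storage protein genes. Over the 8 members tested in larvae the median difference was 0.14, and 1 passed an adjusted p of 0.05 (limma), higher in mutants, where 9.4% of all genes passed. In embryos, where 4 of 11 members were in the table, the sum overlapped between genotypes at 8-12 h and 12-16 h. At 16-20 h it was 14.3 to 18.7 FPKM for controls and 21.7 to 23.5 FPKM for mutants. This sum was carried by bmm, with means of 13.1 FPKM in controls and 20.0 FPKM in mutants. Lsp1gamma went the other way, from 3.72 to 2.22 FPKM, and Lsp2 was at 0 in mutants. Of the 2 members tested there, 1 was higher in mutants (limma adjusted p under 0.05), where 15.8% of all genes passed.

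Blood cell markers, of which 3 were in the embryo table with PPO1, a prophenoloxidase gene, in the lead, gave sums at 8-12 h of 52.6 to 64.5 FPKM (controls) and 71.9 to 76.4 FPKM (mutants). At 12-16 h they were lower in mutants (102 to 108 against 78.4 to 94.2 FPKM), and at 16-20 h higher (12.5 to 16.9 against 17.3 to 17.7 FPKM). They overlapped between genotypes in larvae, with 149 to 184 FPKM in controls and 129 to 193 FPKM in mutants. PPO1 made up most of the 12-16 h sums, with means of 99.9 FPKM in controls and 83.6 FPKM in mutants. Of the 3 genes tested in embryos, 1 was higher at 8-12 h (limma adjusted p under 0.05). At 12-16 h 0 passed (limma; 1 at an unadjusted p under 0.05, 2 with voom). At 16-20 h 1 was higher and 1 lower. The shares of all genes called at these stages were 5.63%, 31.7% and 15.8%. Testis markers, of interest for glob2 and glob3, summed to no more than 6.96 FPKM in any embryo library. Of 17 such genes in the embryo table, 5 to 8 were at 0 in each embryo group, Mst84Da and Mst98Ca in all of them. In larvae the testis sum was 4.50 to 5.91 FPKM in controls and 3.76 to 16.6 FPKM in mutants, and the highest value came from the mutant library that also held the most glob2 (4 fragments). The part of these cell types in the globin values was not tested.

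Of 9 maternally supplied genes tested in embryos, 6 rose in mutants at 12-16 h and 6 at 16-20 h (limma adjusted p under 0.05). At these stages 31.7% and 15.8% of all genes were called in either direction, and 1222 and 586 of 6784 were higher. At 8-12 h 0 of 9 passed (limma; 3 at an unadjusted p under 0.05, 0 with voom), against 5.63% of all genes. The list, of which 14 genes were matched, was led at 8-12 h by the cyclin genes CycB and CycB3. Its sum at 8-12 h was 237 to 246 FPKM for controls and 268 to 573 FPKM for mutants. At 12-16 h the sums were 56.5 to 82.2 and 288 to 578 FPKM, and at 16-20 h 66.0 to 94.3 and 205 to 305 FPKM, in the same order. In larvae they were 21.5 to 23.2 FPKM in controls and 18.7 to 26.8 FPKM in mutants and overlapped. A further fit took the mean log2(FPKM + 1) of the list in each sample, not its sum, as a covariate. With this covariate the difference of glob1 between genotypes was 0.66 at 8-12 h, 0.55 at 12-16 h and 0.44 at 16-20 h (SE 0.0827, 0.176 and 0.114). Without it the differences were 0.59, 0.30 and 0.30 (SE 0.0786 each). The list itself differed between genotypes, so the covariate cannot be separated cleanly from genotype. The part of maternal RNA in the glob1 difference was not tested.

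**Figure D4:**
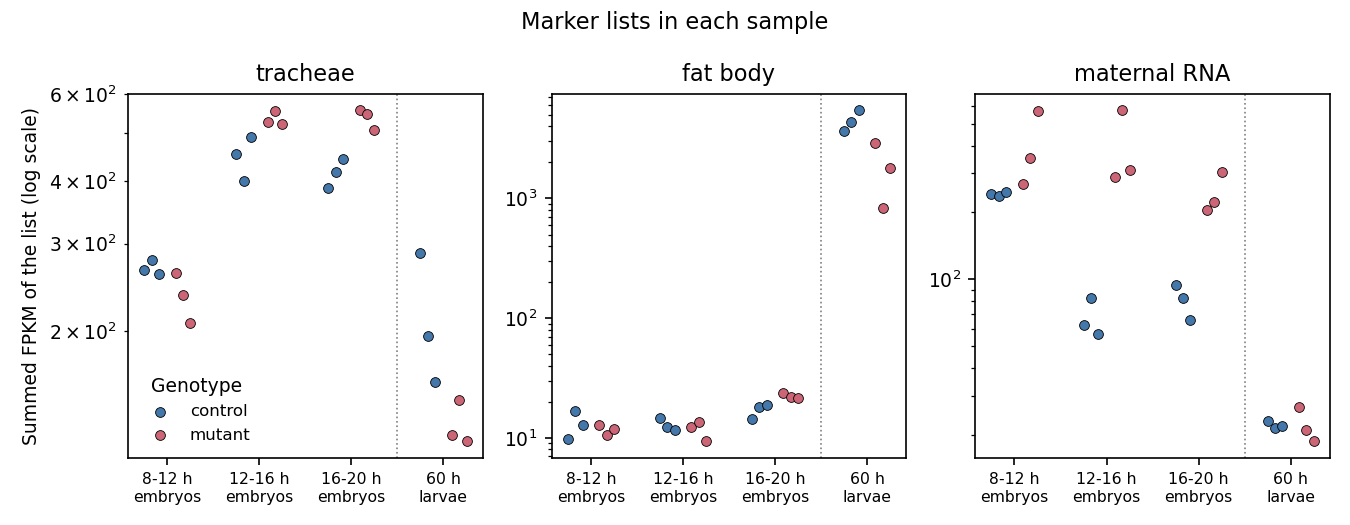
Summed FPKM of the tracheal, fat body and maternal RNA lists (vertical axes, log scale) in each sample, by stage and genotype. Each point is 1 sample. The maternal sum is 288 or more in mutants and 82.2 or less in controls at 12-16 h, and the fat body sum of mutant larvae (836 to 2922) lies below that of control larvae (3695 to 5482).

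The surroundings of glob1 were examined because sima lies on the same arm. Beside the shared allele 1, mutants carried a copy with allele 20 and controls a copy without a sima mutation. The nearest gene on the left, CG14877, lies 848 bp away and did not exceed 0.402 FPKM in any group mean. The nearest on the right, 1597 bp beyond the outermost glob1 start site, is the pseudogene CR31292 on the other strand. CR31292 rose in mutants from 21.8 to 44.3 FPKM at 8-12 h (log2 difference 1.00, limma adjusted p 0.000179) and from 15.3 to 27.9 FPKM at 16-20 h (0.83, limma adjusted p 0.000696). At 12-16 h its difference was -0.08 (limma adjusted p 0.649) and in larvae 0.20 (limma adjusted p 0.25), and neither passed the threshold.

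Within 100 kb of glob1, 25 other genes were tested in embryos and 21 in larvae. Of these 2, 3, 6 and 2 were higher in mutants at the 4 stages and 0, 1, 0 and 0 lower, with median differences of -0.05, 0.0036, 0.05 and 0.05. Over all genes, 5.63%, 31.7%, 15.8% and 9.4% passed the threshold in either direction. Higher in mutants were 172, 1222 and 586 of all 6784 genes tested at the embryo stages and 358 of 8619 in larvae. On arm 3R 5.50% of genes tested passed at 8-12 h, 32.7% at 12-16 h, 18.2% at 16-20 h and 11.4% in larvae. Off 3R the shares were 5.71%, 31.0%, 14.3% and 8.73%, in the same order. Tested embryo genes placed on an arm came only from 2R, 3L and 3R. The neighbours of glob2, CG31482 and sowi, did not exceed 0.112 FPKM in any group mean. Next to glob3, dgrn passed the threshold at no stage, and asRNA:CR45192 did not exceed 0.212 FPKM.

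Globins need heme, which is made from a pathway that opens with the enzyme encoded by Alas and closes with ferrochelatase, encoded by FeCH. In mutant larvae, where glob1 was highest, Alas, Pbgs and FeCH were higher among the 8 heme synthesis genes and Uros1 was lower, while the other 4 did not pass the threshold, against 9.4% of all genes called. At 16-20 h 1 of 6 rose (Alas) and 1 fell (Pbgs), where 15.8% of all genes were called. At 8-12 h and 12-16 h 0 of 6 passed, against shares of 5.63% and 31.7% of all genes. At an unadjusted p under 0.05 limma gave 2 heme synthesis genes at 8-12 h and 0 at 12-16 h, and voom with adjustment gave 0 at both.

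FeCH in control larvae was 29.3, 28.8 and 26.2 FPKM and in mutant larvae 48.4, 47.4 and 43.4 FPKM. The groups lay far apart, and the rise from 28.1 ± 1.71 to 46.4 ± 2.68 FPKM (SD, n = 3) was 0.70 on the log2 scale (limma adjusted p 0.00964). It held when any 1 larval library was left out (limma adjusted p 0.0216 to 0.0467). FeCH did not pass the threshold at the embryo stages, with differences of 0.04, 0.07 and 0.04.

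Alas, which encodes the first and rate-limiting enzyme, was 32.3, 40.4 and 41.1 FPKM in 16-20 h controls and 60.3, 66.9 and 53.8 FPKM in mutants. All mutant samples lay above all control samples, with a log2 difference of 0.66 (limma adjusted p 0.00454), and the call held in all 16 alternatives. In larvae Alas was 25.5, 23.3 and 18.2 FPKM in controls and 32.9, 39.7 and 37.0 FPKM in mutants, a difference of 0.70 (limma adjusted p 0.0361). The larval call was lost without the filter on low values and in 5 of 6 fits that left out a library (limma adjusted p up to 0.112).

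Pbgs, which encodes porphobilinogen synthase, the next enzyme, fell at 16-20 h by 0.21 (limma adjusted p 0.0439) and rose in larvae by 0.34 (limma adjusted p 0.0496). Both calls stood at the threshold: the first was lost in 5 of 6 and the second in 6 of 6 fits that left out a library, with limma adjusted p up to 0.147 and 0.159. Uros1, encoding uroporphyrinogen III synthase, was 4.97 ± 0.276 FPKM in control and 3.15 ± 0.428 FPKM in mutant larvae (SD, n = 3). Its difference of -0.53 (limma adjusted p 0.0318) was lost in 5 of 6 such fits. Uros1 lies outside the rule for naming genes and was named after its values were seen.

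**Figure D5:**
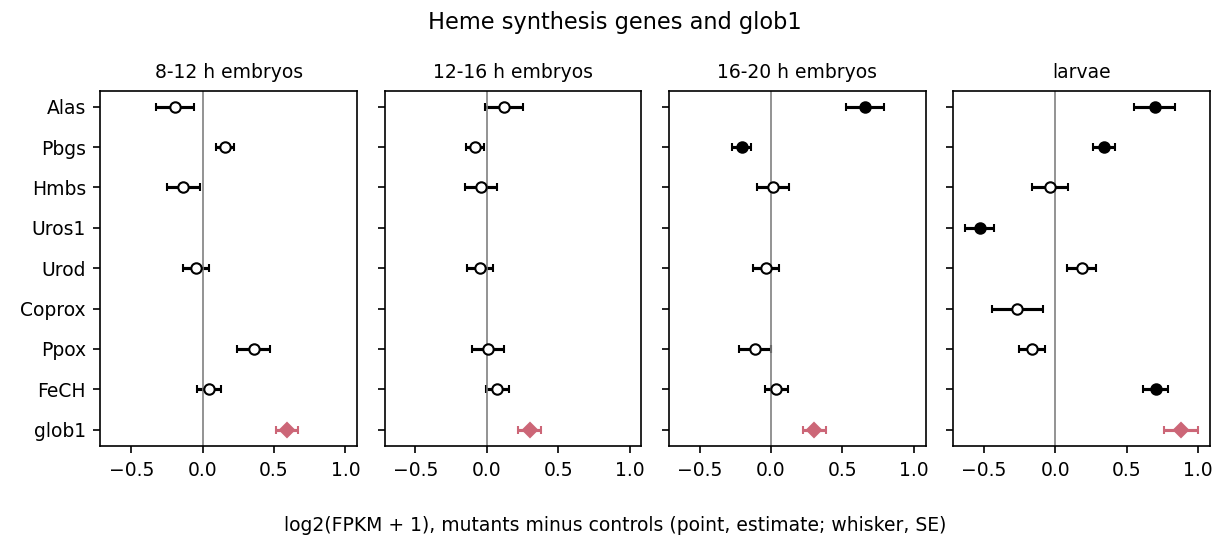
Differences of the heme synthesis genes, in pathway order from Alas to FeCH, and of glob1 (bottom, diamonds) on the log2(FPKM + 1) scale (horizontal axes, mutants minus controls) at each stage. Points are estimates and whiskers SEs; filled circles passed an adjusted p of 0.05 (limma), open circles did not, and glob1 is shown without a test. Uros1 and Coprox are shown in larvae alone. FeCH (0.70) and Alas (0.70) lie closest to glob1 (0.88) in larvae.

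The whole oxygen and heme list held 41 genes, of which 27 were tested in embryos and 32 in larvae. At 8-12 h 0 passed (limma, adjusted over all genes), with 2 at an unadjusted p under 0.05 and 0 with voom. The 12-16 h calls numbered 7, of which 5 were rises and 2 falls. At 16-20 h 2 genes rose and 3 fell, and larval calls comprised 5 rises and 2 falls. Against the shares of all genes given above, 5.63%, 31.7%, 15.8% and 9.4%, this was 0 of 27, 7 of 27, 5 of 27 and 7 of 32. The median differences of the list were -0.05, 0.07, -0.03 and 0.01. Left-out libraries moved the counts to between 3 and 7 at 12-16 h, between 3 and 5 at 16-20 h and between 1 and 4 in larvae, where every such fit called fewer than 7.

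Among the 6 tested genes of iron storage and transport, Mvl, which encodes a metal ion transporter of the NRAMP family, fell at 12-16 h by 0.24 (limma adjusted p 0.0262) and at 16-20 h by 0.42 (limma adjusted p 0.00222). Its samples at 16-20 h were 5.59 to 6.16 FPKM for controls and 3.95 to 4.55 FPKM for mutants, without overlap. The 16-20 h call of Mvl was lost with the maternal list as a covariate (limma adjusted p 0.155). The transferrin gene Tsf3 rose by 0.29 at 12-16 h (limma adjusted p 0.0437) and by 0.51 at 16-20 h (limma adjusted p 0.00508), there from 9.50 ± 0.394 to 13.9 ± 0.908 FPKM (SD, n = 3). Tsf2, another transferrin gene, fell at 12-16 h by 0.47 (limma adjusted p 0.00213). The calls of Mvl and Tsf3 at 12-16 h were lost in 4 of 6 and 5 of 6 fits that left out a library, and that of Tsf3 dropped to 0.19 without control replicate 2 (limma adjusted p 0.188).

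Of the genes that remove reactive oxygen, Sod3, an extracellular superoxide dismutase gene, rose at 12-16 h by 0.63 (limma adjusted p 0.00327) and fell at 16-20 h by 0.45 (limma adjusted p 0.0343), a call lost in 5 of 6 fits that left out a library. Its level in controls went from 1.37 FPKM at 12-16 h to 43.1 FPKM at 16-20 h, and in mutants from 2.69 to 31.4 FPKM. Sod1, the cytosolic enzyme, rose at 12-16 h by 0.72 (limma adjusted p 0.0160), as did the glutathione peroxidase gene Gtpx, by 0.32 (limma adjusted p 0.0344). The Sod1 call was lost without control replicate 2, which lowered the difference to 0.44 (limma adjusted p 0.0719), and without mutant replicate 2 (0.65, limma adjusted p 0.0693). That of Gtpx was lost without control replicate 2 (0.25, limma adjusted p 0.130) and without mutant replicate 3 (0.24, limma adjusted p 0.129). In larvae Cat, the catalase gene, fell by 0.56 (limma adjusted p 0.0250), a call lost in 5 of 6 fits that left out a library. Cat was named after its values were seen. The peroxiredoxin genes Prx6b and Prx6c rose there by 0.70 (limma adjusted p 0.0478) and 0.61 (limma adjusted p 0.0452). These are near-identical neighbouring copies whose reads may be shared, and both calls were lost in 6 of 6 fits that left out a library. The 7 calls at 12-16 h were all lost with the maternal list as a covariate, and also when only the 2 groups compared were fitted. Over all genes, calls at 12-16 h went from 2148 to 55 with the covariate and to 773 with the 2 groups. The maternal list differed most between genotypes at this stage, and the covariate moved the SE of the glob1 difference there from 0.0786 to 0.176. The cause of these losses was not tested.

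The genes whose pattern was most like that of glob1 were sought over the 18 embryo samples among 6783 tested genes, by Pearson's r of log2(FPKM + 1). The closest was Orcokinin, a neuropeptide gene, with r = 0.821. It was followed by Obp46a, of the odorant-binding protein family (0.756), Tbcb, a tubulin-folding cofactor (0.754), Mst57Dc, of a family of male accessory gland genes and at 0 in all control embryos (0.753), and Ir76a, an ionotropic receptor gene (0.732). No gene reached an r of 0.9 with glob1, and by Spearman's rho only 2 of these 5 were among the closest 5. The samples share genotype and stage, so r describes the pattern over 6 groups more than single samples. Obp46a and Ir76a were near the minimum of 1 FPKM, with highest embryo group means of 1.58 and 0.977 FPKM. Mst57Dc passed that filter through mutant samples alone, so its r rests in part on the contrast on which glob1 was chosen. Of the 5, Orcokinin and Tbcb were tested in larvae, where their differences were 0.54 and -0.24, against 0.88 for glob1.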

How the data were processed

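Per the labels' protocols, total RNA was extracted with a column kit, and 2 µg entered stranded, poly(A)-selected Illumina libraries. FPKM values were deposited as a table for embryos and another for larvae, each with 1 column per sample. The submitters' processing notes name featureCounts, DESeq2 and the build BDGP6, with no versions or roles. The aligner, and whether fragments in introns were counted, are not given in the sources used here. The embryo table as used here stops inside row 14337 and was read to row 14336. Of 10889 embryo and 17895 larval gene rows, 10865 and 17855 matched the annotation (Ensembl release 115).

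Samples were grouped by the genotype label and by the stage in the title. Values were taken as log2(FPKM + 1). Genes with at least 1 FPKM in at least 3 samples were tested with limma 3.58.1 in R 4.3.3 (eBayes with trend, Benjamini-Hochberg adjustment over all genes, threshold 0.05), in 1 model of the 18 embryo samples and another of the 6 larval samples. This left 6784 and 8619 genes. The fit was also run on simulated data with a common spread for all genes, unlike these data, and no error rate is taken from it. Fragments were recovered as FPKM times gene span times a denominator found from the steps of the values. In larvae, that denominator was 0.943 to 1.07 times a library's own gene total. In embryos, where the table is cut short, the gene totals were smaller, at 4.82 to 7.07 M fragments. Their share of the denominator differed by stage. In control replicate 1 the denominator was 13.4 M against a gene total of 6.09 M at 8-12 h. At 16-20 h it was 8.71 M against 6.04 M. The effect of this on the stage changes was not tested. The number of samples and the depth of the libraries limit the precision. Poisson intervals are two-sided and limits of 3 fragments one-sided, both at 95%, and both cover counting error only. The two-sided upper bound for 0 fragments is 3.69. glob2 and glob3 were compared by exact permutation within genotypes, with Python 3.11.15 and scipy 1.17.1.

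The globins, the gene lists and the tests were chosen with earlier results of these data known. Beside all 3 globins, the text names list members called at 2 or more stages and up to 4 called members per comparison with the largest difference, the 5 genes most like glob1, the nearest and overlapping genes, sima and the leading 2 genes of each marker list. Of the maternal list 14 genes were matched and the rest was not analysed here. Alternatives were a pseudocount of 0.1, no filter, a minimum of 5 FPKM, quantile normalization, median centring, no trend, a replicate block, voom on the recovered fragments, the maternal level as a covariate, a fit to the 2 groups compared, and each replicate left out. Over 24 pairs of replicates Pearson's r lay between 0.961 and 0.993, and no pair agreed within sampling noise. The arms were compared as shares of genes called. No sequence is printed.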

Additional observations from a re-analysis of the deposited data

Results flagged for a closer look

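In 5 of the named oxygen and heme genes a change of the genotype difference between embryo stages passed an adjusted p of 0.05. The test was limma's moderated F test, adjusted across all genes. These genes were named for their calls between genotypes in the same samples, which favours a low p here, so nothing further is read from it. The share of all genes that passed this F test is not given here. The adjusted p was 0.00788 for Sod3, whose difference was 0.63 at 12-16 h and -0.45 at 16-20 h. For Alas it was 0.0233, with differences of -0.19, 0.12 and 0.66 at the 3 stages. For Tsf3 it was 0.0303 (differences of -0.12, 0.29 and 0.51) and for Pbgs 0.0391 (0.16, -0.08 and -0.21). Tsf2 had an adjusted p of 0.0473 (-0.12, -0.47 and 0.01). No group had more than 3 samples, so single samples were not examined for standing apart from their group.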

How the results depend on the processing

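The difference of glob1 between genotypes stayed above 0 in all alternatives, from 0.56 to 0.66, 0.18 to 0.55, 0.23 to 0.44 and 0.78 to 0.98 at the 4 stages. It moved by more than the spread at 12-16 h with quantile normalization (0.18), median centring (0.22) and the maternal covariate (0.55), and at 16-20 h with the covariate (0.44). The rise in controls from 8-12 h to 12-16 h missed the threshold with median centring (0.19) and the covariate (0.21). The small change in mutants turned to -0.15 with median centring. From 8-12 h to 16-20 h the change in controls turned to -0.16, -0.28 and -0.0311 with quantile normalization, median centring and the covariate, and median centring alone made it a called fall (limma adjusted p 0.00563). That in mutants missed the threshold with only the groups compared (-0.21) and, leaving out replicates, ran from -0.27 to -0.17. The rise of glob2 ran from 0.230 to 0.290 FPKM when each sample was left out (exact permutation p 0.005 to 0.01).

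List members called at 12-16 h were 1 with the covariate (Gycalpha99B, a guanylate cyclase gene, named after its values were seen), 0 with only the groups compared and 4 with the replicate block. At 16-20 h they were 2 with the covariate and 3 with quantile normalization, and in larvae 2 without the filter. Leaving out replicates gave 0 to 1, 3 to 7, 3 to 5 and 1 to 4 at the 4 stages. Of all genes, 179 were called at 8-12 h with the covariate and 81 with only the groups compared, 55 and 773 at 12-16 h, and 153 with the covariate at 16-20 h. In larvae 485 were called without the filter. Leaving out replicates gave 111 to 752, 1317 to 2127, 561 to 1022 and 200 to 797 genes. On 3R the values of the genotypes did not overlap in 29.4%, 41.4%, 42.7% and 36.3% of genes. Off 3R these shares were 30.4%, 40.5%, 39.7% and 34.3%. By Spearman's rho 2 of the 5 genes most like glob1 remained. The cause of these shifts was not tested.

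Same-numbered samples did not deviate together, with mean correlations of 0.03, -0.08 and -0.03 between genotypes in embryos and -0.31 in larvae, so the numbers do not pair the samples. With the replicate block 133 genes and 0 list members were called in larvae, and 4 list members at 12-16 h. The larval calls of FeCH (limma adjusted p 0.0577), Alas and Cat (both 0.116) and the 12-16 h call of Gtpx (0.0517) were among those lost.

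Depth limits glob3, with at most 3 fragments per library, and glob2, with at most 11.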
